A study of Homo sapiens with 60 samples.

Results

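Superoxide dismutases turn superoxide into hydrogen peroxide, and catalase, glutathione peroxidases and peroxiredoxins remove that peroxide. In cells SOD1 works in the cytosol, SOD2 in the mitochondrial matrix and SOD3 outside the cell. CAT, which encodes catalase, acts in peroxisomes. GPX1 and GPX4 encode selenium-containing glutathione peroxidases, and GPX4 reduces lipid peroxides within membranes. PRDX2 is cytosolic, PRDX3 mitochondrial, PRDX5 spread over several compartments, and PRDX6 is the peroxiredoxin with a single active cysteine. SOD2 is known as a target of the inflammatory transcription factor NF-kB in many cell types, while FOXO factors, which are kept from the nucleus when PI3-kinase is active, are known to act on SOD2 and CAT. All 10 of these genes were taken from the 60675 gene rows of the expression table by their gene symbol, and all 10 passed the filter on low counts that 17919 genes passed.

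SW1783 is an established line from a human astrocytoma, and its RNA was sequenced 24 h after treatment began. The 60 libraries fall into 22 groups. Vehicle libraries received DMSO, at 0.1% in the sample labels and at 2% in the series text. The labels give a DMSO percentage for the vehicle libraries only. Any difference in DMSO therefore cannot be told apart from the treatment in a comparison with vehicle. Wortmannin and LY294002, inhibitors of PI3-kinase, and thioridazine, a phenothiazine antipsychotic, were given at 10 µM. Hot-water extracts of Poria Cocos (called poria here), Atractylodis Rhizoma (atractylodes), Glycyrrhizae Radix (licorice), Panax Ginseng (ginseng), Angelicae Gigantis Radix (angelica) and Paeoniae Radix (peony) were given at 500, 100 and 20 µg/mL, called high, medium and low. There were 3 libraries per group, and 2 in each angelica and peony group. The labels do not say whether these came from separate cultures, so p-values measure only the spread between these libraries, which may be technical. All 60 sample titles carry the same batch label, BatchA. By the first part of their codes, however, the vehicle samples form a separate set from all treated samples. The labels do not say what this part stands for. Any difference between sets cannot be told apart from the treatment in a comparison with vehicle. The doses of 1 extract share a set.

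The libraries held 19446226 to 30870890 expected counts each, which are reads assigned to genes by estimation. Of the 12 astroglial markers VIM averaged 5310 CPM (counts scaled to the size of the library) and CD44 2584 CPM. GJA1 averaged 242.0, SOX9 77.55, SLC1A3 23.7 and NES 6.33 CPM. The others were near 0. GFAP averaged 0.0887 CPM, S100B 0.0877 CPM, AQP4 0.0398 CPM, SLC1A2 0.273 CPM, ALDH1L1 0.0453 CPM and FABP7 0.0058 CPM. Among markers of other cells EPCAM, CDH1 and HBB averaged under 0.05 CPM, but KRT18 stood at 191.6, CD68 at 163.6, KDR at 30.5, KRT8 at 18.4 and PTPRC at 8.48 CPM. Of other neural markers CSPG4 averaged 166.5 and TUBB3 113.8 CPM. There were 5 libraries that an earlier look at these data had set apart: peony high replicate 1, atractylodes high replicate 1, ginseng low replicate 1, licorice medium replicate 3 and angelica low replicate 2. Their median absolute log2 difference from the other libraries of their group was 0.0831 to 0.145 over genes, against 0.0439 to 0.111 for the other 55. These ranges overlap: licorice medium replicate 2, not set apart, was at 0.0957, above ginseng low replicate 1 (0.0882). In a group of 2 libraries the value is the same for both, as in peony high (0.0831) and angelica low (0.111). There it cannot tell which library stands apart. Calls of the enzyme genes in the groups of these libraries are given with and without them. Most other values for those groups, such as counts over gene lists, are given with them only.

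Promoter sequence is shown first for SOD2, the enzyme gene whose level varied most, and for NFKBIA, which encodes the NF-kB inhibitor and is itself a standard NF-kB target. Both are from RefSeq (GRCh38.p14), read 5′ to 3′ on the minus strand. The SOD2 stretch, chr6:159693329-159693491, is the part of the 250 bases before a RefSeq start that holds no annotated exon base, and its capitals mark the SP1 box GGGCGG. The NFKBIA stretch, chr14:35404750-35404999, is the whole window of 250 bases, and its capitals mark the single match to the NF-kB motif of 10 bases.
SOD2: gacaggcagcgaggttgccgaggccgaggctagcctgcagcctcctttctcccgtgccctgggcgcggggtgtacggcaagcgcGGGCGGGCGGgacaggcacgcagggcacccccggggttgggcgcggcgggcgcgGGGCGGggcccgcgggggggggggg
NFKBIA: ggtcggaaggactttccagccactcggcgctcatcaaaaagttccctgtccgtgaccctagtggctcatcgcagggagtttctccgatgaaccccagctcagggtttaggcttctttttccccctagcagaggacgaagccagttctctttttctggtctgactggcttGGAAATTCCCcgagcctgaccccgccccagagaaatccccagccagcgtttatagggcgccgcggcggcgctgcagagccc
No NF-kB motif, no antioxidant response element (TGACNNNGC) and no FOXO motif (GTAAACA) was found on either strand in any of the 4 SOD2 windows, nor in the windows of CAT, GPX1, GPX4, PRDX2, PRDX3, PRDX5 and SOD3. SOD1 and PRDX6 were not matched in the promoter table. Of all 35116 windows of this length, 9.96% held the NF-kB motif, 10.91% the antioxidant response element, 2.98% the FOXO motif and 42.64% the SP1 box, whose matches could overlap each other. Of 15 NF-kB target genes in that table, 10 held the NF-kB motif. These matches describe letters in a short window and say nothing of whether a factor binds.

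Per kilobase of merged exons in vehicle, GPX1 was the highest of the 10 at 149.8 ± 1.40 CPM per kilobase (SD, n = 3), followed by PRDX5 at 128.5 ± 1.64 and PRDX6 at 99.7 ± 2.19. CAT stood at 9.56 ± 0.138 and SOD3, the secreted enzyme, was the lowest at 4.26 ± 0.185. SOD2 stood at 6.59 ± 0.270 over its merged exons, which are 16493 bases long because of long transcript ends. With the median coding transcript of 990.5 bases in their place SOD2 came to 109.8 ± 4.50 on the same scale, so its place among the enzymes rests on the length used. GPX1 was the highest with both lengths, and SOD3 the lowest.

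SOD2 varied far more between treatments than the other enzymes did. The standard deviation of its log2 group means was 0.65 over 22 groups, against 0.07 between libraries of a group. GPX1 followed with 0.23 against 0.08 and GPX4 with 0.21 against 0.09, whereas PRDX6 had 0.05 against 0.07. Against vehicle, 28 of the 210 pairs of enzyme gene and treatment rose and 10 fell, beside 6.03% of all gene and treatment pairs rising and 6.16% falling. Without SOD2, 20 of 189 rose and 10 fell. All 21 comparisons share the same 3 vehicle libraries. In bulk RNA, fewer cells of a type and less RNA per cell cannot be told apart.

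**Figure D1:**
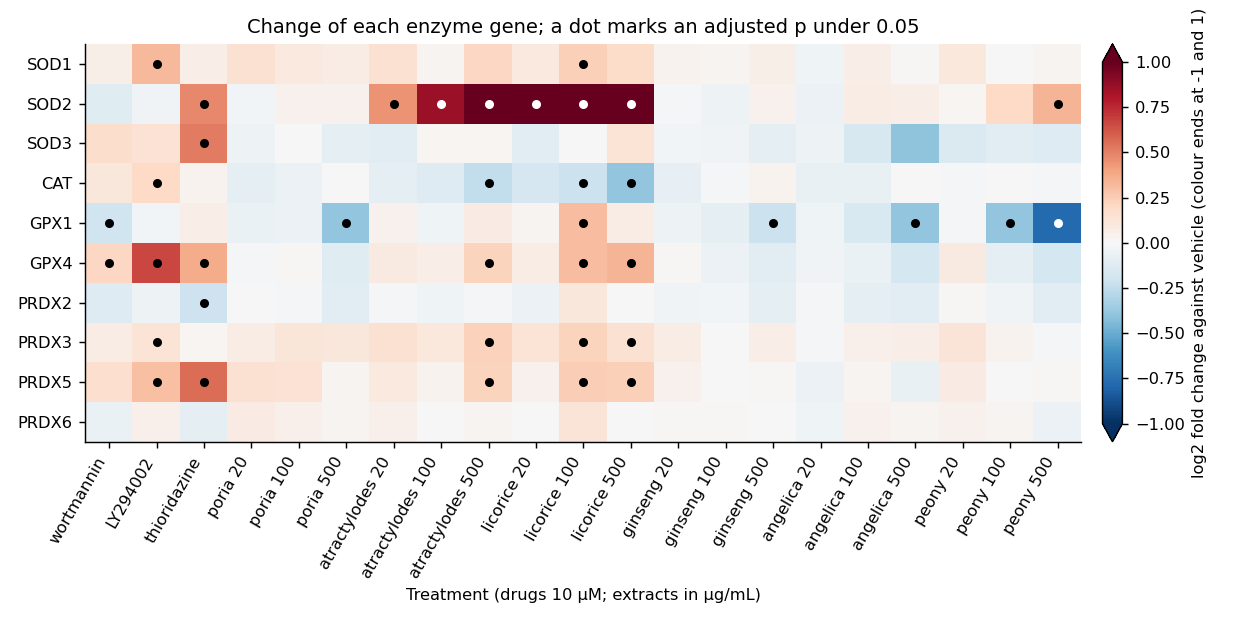
Log2 fold change against vehicle of each of the 10 enzyme genes (rows) in the 21 treatments (columns; drugs at 10 µM, extracts in µg/mL), with a dot where the adjusted p was under 0.05 in edgeR's quasi-likelihood test. SOD2 rose at every dose of atractylodes and licorice, GPX1 fell in 6 treatments, and PRDX6 has no dot.

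SOD2, which encodes the manganese superoxide dismutase of mitochondria (ENSG00000112096, chr6:159669057-159745186, minus strand, GRCh38), was 111.2, 111.4 and 103.6 CPM in the 3 vehicle libraries. In licorice it was 505.6, 487.0 and 477.0 CPM at the high dose, 391.0, 377.2 and 340.1 CPM at the medium dose and 236.4, 215.2 and 218.7 CPM at the low dose. In atractylodes it was 327.0, 296.0 and 287.5 CPM at the high dose, 203.4, 197.0 and 194.3 CPM at the medium dose and 152.3, 147.8 and 144.1 CPM at the low dose. No library of these 6 groups overlapped the vehicle libraries, and within each extract the doses did not overlap each other. Of all genes 46.8%, 35.6% and 28.6% did not overlap vehicle in licorice high, medium and low. In atractylodes these shares were 28.5%, 21.2% and 21.2%. The row is named SOD2 by GENCODE 29, whereas a newer naming table gives that symbol to another identifier, which was not analysed here.

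On the log2 scale SOD2 rose against vehicle by 2.17 ± 0.05 (SE) in licorice high, 1.76 ± 0.05 in licorice medium and 1.04 ± 0.05 in licorice low. It rose by 1.48 ± 0.05, 0.87 ± 0.05 and 0.45 ± 0.05 in atractylodes high, medium and low. The adjusted p in edgeR's quasi-likelihood test, corrected over 17919 genes, ran from 9.6e-37 in licorice high to 2.5e-07 in atractylodes low. Within an extract, where the doses share a set of samples, SOD2 was higher at the high than at the low dose by 1.13 ± 0.05 in licorice (adjusted p = 3.0e-24) and by 1.04 ± 0.05 in atractylodes (adjusted p = 5.3e-22). Without the libraries standing apart, the change against vehicle was 1.42 in atractylodes high and 1.82 in licorice medium, both still called. Atractylodes high was then 0.98 above atractylodes low, also called.

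In edgeR's test SOD2 also rose with thioridazine and in peony high. SOD2 was 150.3, 145.9 and 158.9 CPM with thioridazine, 0.48 ± 0.05 above vehicle (log2, adjusted p = 4.0e-11). It was 142.1 and 133.4 CPM in peony high, 0.34 ± 0.06 above vehicle (adjusted p = 2.9e-05). Neither group overlapped vehicle, as was so for 59.3% of all genes with thioridazine and 48.4% in peony high. Peony high also exceeded peony low, by 0.32 ± 0.07 (adjusted p = 9.3e-04). With peony high replicate 1 left out among the 5 libraries, peony high rests on a lone library. The SOD2 change was then 0.30 against vehicle and 0.27 against peony low. In peony medium SOD2 was 128.7 and 121.2 CPM, both above the vehicle libraries, where 38.7% of all genes did not overlap vehicle. Its log2 change of 0.20 ± 0.06 did not pass (adjusted p = 0.054). It was called under 5 of 6 alternatives, DESeq2 and the replicate block among them (adjusted p from 0.0012 to 0.064 over the 6).

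In the order of group means, licorice high stood at 489.9 ± 14.5 CPM (SD), licorice medium at 369.4 ± 26.3, atractylodes high at 303.5 ± 20.8, licorice low at 223.4 ± 11.3 and atractylodes medium at 198.3 ± 4.69, and each of these ranges was separate from the next. Thioridazine at 151.7 ± 6.63 CPM and atractylodes low at 148.1 ± 4.14 CPM overlapped. Peony high (137.7 ± 6.15 CPM) and peony medium (124.9 ± 5.26 CPM) were separate from their neighbours. The other 13 groups, vehicle included at 108.7 ± 4.46 CPM, ran from 114.4 to 100.1 CPM with each range overlapping its neighbour. Wortmannin, the lowest group, had 99.7, 102.1 and 98.5 CPM, below all vehicle libraries, where 49.1% of all genes did not overlap vehicle. Its log2 change of -0.12 ± 0.05 did not pass (adjusted p = 0.087).

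**Figure D2:**
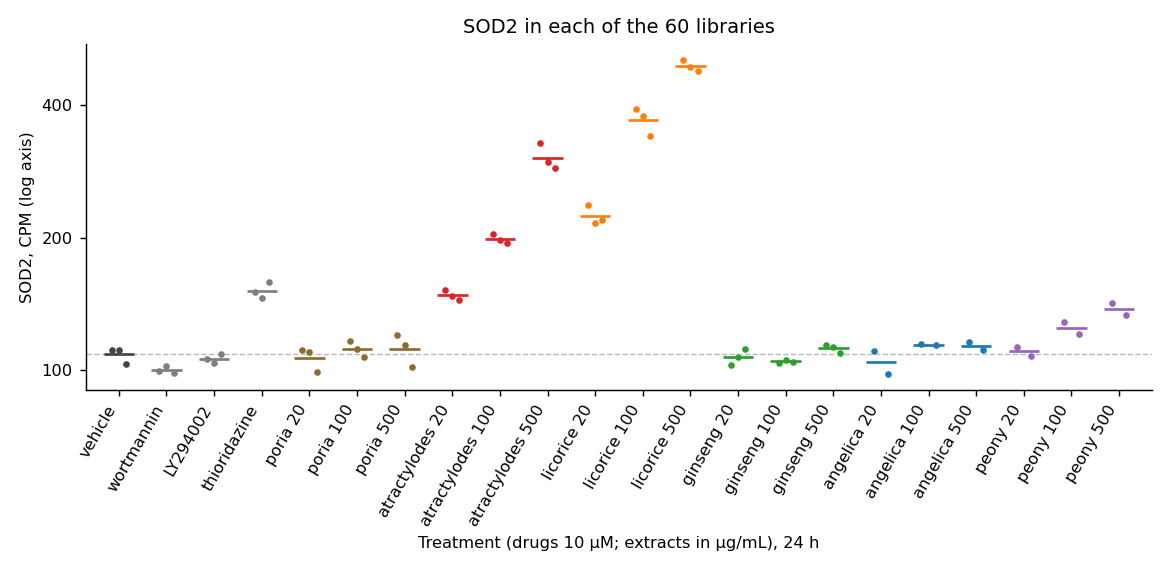
SOD2 in CPM (log axis) in each of the 60 libraries (points) with the group mean (bar), by treatment, and the vehicle mean as a dashed line. Licorice and atractylodes libraries rise with dose to 505.6 and 327.0 CPM, while poria, ginseng and angelica libraries lie between 98.1 and 120.2 CPM.

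Set against its fellow enzymes in the same library, SOD2 stood apart in the same treatments. The ratio of SOD2 to the geometric mean of the other 9 enzyme genes, both in CPM, was 1.21 in vehicle. It was 5.16 in licorice high, 3.71 in licorice medium and 2.48 in licorice low. In atractylodes it was 3.19, 2.20 and 1.61 from the high to the low dose. The ratio was 1.69 in peony high, 1.45 in peony medium, 1.52 with thioridazine, 1.08 with wortmannin and 1.04 with LY294002. These ratios are descriptions and were not tested.

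The NF-kB targets, a list of 20 genes of which 19 were tested, mostly rose with SOD2 in licorice and in atractylodes high and medium. All 19 rose in licorice high, with a median log2 change of 1.37, where 15.9% of all genes rose and 15% fell. All 19 rose in licorice medium (median 1.26) and 16 in licorice low (median 0.63), with none falling in either. Of all genes 12.4% rose and 12.8% fell in licorice medium, and 1.53% rose and 1.76% fell in licorice low. In atractylodes 19 rose at the high dose (median 1.10), 13 at the medium dose (median 0.55) and 6 at the low dose (median 0.09), with 1 falling at the low dose. The shares of all genes that rose and fell were 7.24% and 6.63%, 0.675% and 0.385%, and 0.324% and 0.48% from the high to the low dose. NFKBIA, the inhibitor, went from 46.6 CPM in vehicle to 116.0 CPM in licorice high and 102.2 CPM in atractylodes high, a log2 rise of 1.32 and 1.13. TNFAIP3, a deubiquitinase that restrains NF-kB signalling, rose by 1.70 and 1.08, and CXCL8, a chemokine, by 4.43 and 4.23 in these treatments. The SOD2 rise of 2.17 in licorice high lay above the list's median and below CXCL8.

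With thioridazine SOD2 and this list went different ways. Of the 19 genes 12 fell and 1 rose, with a median log2 change of -0.49, where 23.8% of all genes fell and 24.6% rose. NFKBIA was -0.55, TNFAIP3 -0.84 and CXCL8 -1.76, all called, while SOD2 was 0.48. The gene that rose was ICAM1, a cell adhesion molecule, which went from 72.0 to 117.5 CPM, a log2 rise of 0.71. With LY294002, 12 of the 19 fell and none rose (median -0.44), where 19.9% of all genes fell and 19.4% rose, and SOD2 was -0.03 ± 0.05 and not called. With wortmannin 11 fell and 2 rose (median -0.21), where 16.4% of all genes fell and 15.4% rose. In peony high 4 rose and 3 fell (median 0.06), where 10.3% of all genes rose and 10.4% fell, with NFKBIA at -0.01 (not called) and CXCL8 at 0.39, beside the SOD2 value of 0.34.

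**Figure D3:**
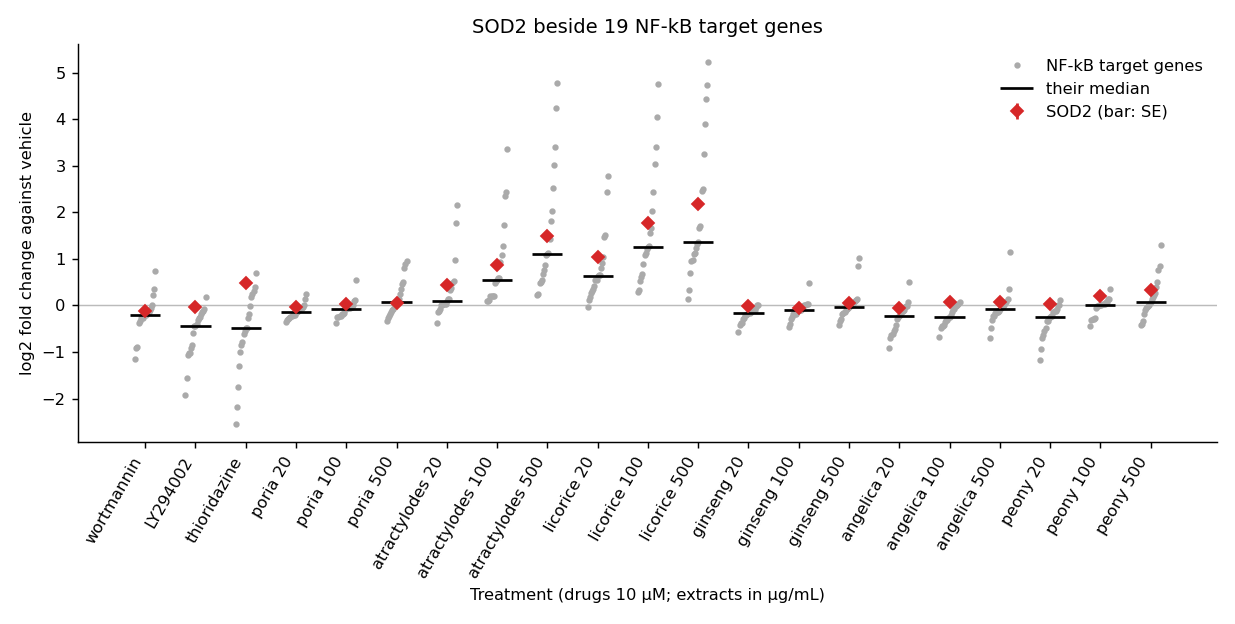
Log2 fold change against vehicle of SOD2 (red diamond, bar for the SE), of each of 19 NF-kB target genes (grey points) and their median (black bar), for the 21 treatments. SOD2 and the median are both high in licorice and in atractylodes high and medium, while in atractylodes low the median is only 0.09. With thioridazine SOD2 is at 0.48 and the median at -0.49.

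Over the 22 group means of log2 CPM, ICAM1 was the gene most like SOD2 among 11174 genes, with Pearson's r = 0.977. CLDN1, a tight junction protein, had 0.971, C3, a complement component, 0.969, RELB, an NF-kB subunit, 0.968, and ACO1, the cytosolic aconitase, 0.959. These values describe group means that share the vehicle and the sets of samples. The WTAP gene overlaps SOD2 on the opposite strand, and no source used here gives the strand setting used in counting. WTAP was 100.6 CPM in vehicle, 129.1 CPM in licorice high (log2 0.36, called) and 116.7 CPM in atractylodes high (0.21, called), and with thioridazine it was 93.1 CPM (-0.11, not called). Over the 22 group means the correlation of SOD2 with WTAP was 0.94, and with NFKBIA 0.888. The part of WTAP reads in the SOD2 counts was not tested.

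GPX1, the cytosolic and mitochondrial glutathione peroxidase (ENSG00000233276, chr3:49357171-49358600, minus strand), fell in 6 treatments. It was 215.1, 215.6 and 211.9 CPM in vehicle. In peony it was 119.1 and 130.7 CPM at the high dose, 163.2 and 162.0 CPM at the medium dose and 215.3 and 207.7 CPM at the low dose. The high and medium doses lay below every vehicle library, where 48.4% and 38.7% of all genes did not overlap vehicle. The low dose overlapped vehicle. The log2 change was -0.78 ± 0.07 in peony high (adjusted p = 6.4e-12) and -0.40 ± 0.07 in peony medium (adjusted p = 3.6e-04), and peony high was -0.76 ± 0.08 against peony low (adjusted p = 2.2e-10). Without the libraries standing apart, where peony high rests on a lone library, it was -0.71 against vehicle and -0.69 against peony low.

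Poria, angelica and ginseng at the high dose, and wortmannin, were the others. GPX1 was 169.6, 156.5 and 163.4 CPM in poria high, -0.39 ± 0.06 against vehicle (adjusted p = 9.1e-06), and -0.33 ± 0.06 against poria low (adjusted p = 3.3e-04). It was 163.1 and 162.4 CPM in angelica high, -0.40 ± 0.07 against vehicle (adjusted p = 1.4e-04). Both groups lay below every vehicle library, where 34.4% of all genes in poria high and 44.2% in angelica high did not overlap vehicle. Against angelica low the difference was -0.35 ± 0.08 (adjusted p = 0.0071). It was -0.27 without the libraries standing apart, where angelica low rests on a lone library. The call was lost with the 2 groups fitted alone (adjusted p = 0.32). It was also lost without angelica high replicate 1 or 2 or angelica low replicate 2, each of which leaves a lone library in its group.

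GPX1 was 185.4, 178.5 and 188.7 CPM in ginseng high, -0.22 ± 0.06 (adjusted p = 0.022), a call lost without any 1 of the vehicle replicates or of ginseng high replicates 1 and 2 (adjusted p from 0.053 to 0.10). With wortmannin it was 181.2, 184.4 and 192.8 CPM, -0.20 ± 0.06 (adjusted p = 0.0087), lost without wortmannin replicate 1 (adjusted p = 0.059). Both groups still lay below every vehicle library, where 32.3% of all genes in ginseng high and 49.1% with wortmannin did not overlap vehicle. In licorice medium GPX1 rose, to 243.6, 252.6 and 298.4 CPM, the last of these in the library standing apart. The log2 change there was 0.31 ± 0.06 (adjusted p = 1.8e-04), and 0.21 without that library (adjusted p = 0.0010).

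In poria high, angelica high, ginseng high and peony medium, GPX1 was the only 1 of the 10 enzyme genes that edgeR called, where 11.6%, 6.46%, 7.25% and 2.55% of all genes were called. DESeq2 also called SOD2 in peony medium. In peony high GPX1 fell and SOD2 rose, where 20.7% of all genes were called. GPX1 shares reads in principle with its processed copy GPX1P1, which held 3.15 CPM in vehicle, 1.47% of the GPX1 level, and 2.97 CPM in peony high, 2.38%. GENCODE 29 lists GPX1 as a polymorphic pseudogene, a class for genes coding in some genomes.

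Among 19 selenoproteins and factors of their synthesis, SELENOW, a small selenoprotein of muscle and brain, was low in several of the same treatments as GPX1. It was 63.8 CPM in vehicle, 37.1 CPM in peony high and 41.6 CPM in peony medium, log2 changes of -0.78 and -0.62. It was -0.36 in poria high and -0.33 in angelica high, all called. In ginseng high SELENOW was 0.06 and not called, and with thioridazine it fell by 0.57 while GPX1 was 0.06 and not called. Over the whole list the counts went both ways. In peony high 5 of the 19 rose and 2 fell, with a median of 0.05, and in angelica high 3 rose and 1 fell, with a median of -0.02. Of all genes 10.3% rose and 10.4% fell in peony high, and 2.94% rose and 3.53% fell in angelica high. TXNIP, the thioredoxin-binding protein and a listed FOXO target, rose by 4.27 in poria high, 3.81 in ginseng high, 2.47 in angelica high and 1.45 in peony high, and was -0.07 and not called in peony medium. Of the 18 listed FOXO targets, 3 rose and 2 fell in poria high and 4 rose and 3 fell in ginseng high (medians 0.01 and 0.02). In angelica high 4 rose and 2 fell (median 0.02), and in peony high 5 rose and 2 fell (median 0.06). In peony medium 3 rose and 0 fell (median 0.03). Of all genes 5.17% rose and 6.41% fell in poria high, 3.05% and 4.2% in ginseng high, and 1.56% and 0.988% in peony medium.

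CAT (ENSG00000121691, chr11:34438925-34472062) was the enzyme gene that fell where SOD2 rose most. It was 34.5, 34.7 and 33.8 CPM in vehicle, 25.3, 27.9 and 25.1 CPM in licorice high, 28.8, 31.3 and 28.8 CPM in licorice medium and 29.5, 28.3 and 28.9 CPM in atractylodes high. None of these libraries reached the vehicle range, where 46.8%, 35.6% and 28.5% of all genes did not overlap vehicle in that order. The log2 change was -0.40 ± 0.05 in licorice high (adjusted p = 2.8e-08), -0.21 ± 0.05 in licorice medium (adjusted p = 0.0017) and -0.25 ± 0.05 in atractylodes high (adjusted p = 8.0e-04). The call in licorice medium was lost when the 2 groups were fitted alone (adjusted p = 0.052). Without the libraries standing apart CAT was -0.26 in atractylodes high and -0.19 in licorice medium, both still called. CAT was also lower in licorice high than in licorice low, by -0.23 ± 0.05 (adjusted p = 0.0011). Of the 20 peroxisome genes 7 rose and 1 fell in licorice high, with a median of 0.06, and 3 rose and none fell in atractylodes high. Of all genes 15.9% rose and 15% fell in licorice high, and 7.24% rose and 6.63% fell in atractylodes high. With LY294002 CAT was 38.1, 39.6 and 40.1 CPM and rose by 0.20 ± 0.05 (adjusted p = 0.0017).

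In licorice high, licorice medium and atractylodes high, GPX4, PRDX3 and PRDX5 rose as well, each by much less than SOD2. GPX4 was 120.9, 118.6 and 116.7 CPM in vehicle and 163.8, 140.1 and 145.8 CPM in licorice high, a rise of 0.34 ± 0.07 (adjusted p = 3.1e-04). PRDX5 was 115.8, 115.4 and 113.1 CPM in vehicle and 143.1, 126.5 and 136.4 CPM in licorice high, 0.24 ± 0.07 (adjusted p = 0.0073; 0.054 without licorice high replicate 1). Neither gene's licorice high libraries overlapped vehicle, as was so for 46.8% of all genes. PRDX3 went from 101.8, 109.6 and 108.3 CPM to 115.4, 124.9 and 115.0 CPM, 0.15 ± 0.05 (adjusted p = 0.020). That call was lost without vehicle replicate 1 or licorice high replicate 2 (adjusted p = 0.11 and 0.14).

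Counting SOD2 and CAT, 5 of the 10 enzyme genes were called in licorice high, where 30.9% of all genes were, and 7 in licorice medium, where 25.2% were. In atractylodes high 5 were called against 13.9% of all genes. In licorice low, atractylodes medium and atractylodes low SOD2 was the only 1 of the 10 that edgeR called, where 3.29%, 1.06% and 0.804% of all genes were. In licorice low DESeq2 called CAT as well (adjusted p = 0.031), which edgeR had at -0.17 ± 0.05 (adjusted p = 0.059; 0.014 to 0.23 over the 6 alternatives, 5 of which called it). The median log2 change of the other 9 enzyme genes was 0.14 in licorice high, 0.22 in licorice medium and 0.08 in atractylodes high.

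In licorice medium SOD1, the cytosolic dismutase, rose by 0.24 ± 0.08, GPX4 by 0.31 ± 0.07, PRDX3 by 0.22 ± 0.05 and PRDX5 by 0.25 ± 0.07. Replicate 3, a library standing apart, was the highest of the group for each of these genes, with 158.4 CPM of SOD1 beside 133.8 and 124.6 CPM, and 170.7 CPM of GPX4 beside 134.0 and 136.4 CPM. With the 5 libraries left out the changes were 0.13 for SOD1 (adjusted p = 0.18), 0.19 for GPX4 (adjusted p = 0.022), 0.16 for PRDX3 (adjusted p = 0.0067) and 0.19 for PRDX5 (adjusted p = 0.078). With replicate 3 alone left out, the GPX4 call was lost too (adjusted p = 0.079). In atractylodes high GPX4 rose by 0.22 ± 0.07, PRDX3 by 0.23 ± 0.05 and PRDX5 by 0.22 ± 0.07. Replicate 1 was again the highest library, at 157.7 CPM of GPX4 beside 124.5 and 132.9 CPM. Without the 5 libraries these were 0.12 (adjusted p = 0.27), 0.16 (adjusted p = 0.0098) and 0.13 (adjusted p = 0.33), and PRDX3 was lost without replicate 1 alone (adjusted p = 0.057). The GPX4 and PRDX5 calls were also lost without any 1 of the vehicle replicates, as was SOD1 in licorice medium without vehicle replicate 1 or 3, and PRDX5 in atractylodes high also without its replicate 3. With the 2 groups fitted alone, the SOD1 call in licorice medium was lost (adjusted p = 0.076). In atractylodes high that fit lost GPX4, PRDX3 and PRDX5 (adjusted p = 0.15, 0.081 and 0.16).

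The list of thioredoxin and glutathione partners holds recycling enzymes, other peroxiredoxins and glutathione peroxidases, and the SOD1 chaperone CCS, and more of it rose than fell in licorice high. Of its 20 genes 14 rose and 3 fell, with a median of 0.28, where 15.9% of all genes rose and 15% fell. TXNRD1, thioredoxin reductase, rose by 0.59, SRXN1, which repairs overoxidised peroxiredoxins, by 0.43, TXN, thioredoxin, by 0.37 and PRDX1, a cytosolic peroxiredoxin, by 0.36. In licorice medium 10 rose and 1 fell, where 12.4% of all genes rose and 12.8% fell, and in atractylodes high 6 rose and none fell, where 7.24% rose and 6.63% fell. In poria high 8 rose and 2 fell, with TXNRD1 at 0.66 and SRXN1 at 0.35, where 5.17% of all genes rose and 6.41% fell and GPX1 was the only enzyme gene called by edgeR or DESeq2. CCS, the copper chaperone that loads SOD1, rose by 0.34 in licorice high, 0.58 in angelica high and 0.41 in peony high. SOD1 was called by edgeR in none of them. In licorice high SOD1 was 0.18 (adjusted p = 0.082 in edgeR), and 3 of 6 alternatives called it.

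In edgeR's test GPX4 was called as rising with all 3 drugs and PRDX5 with LY294002 and thioridazine. With LY294002, GPX4 was 178.2, 202.3 and 186.2 CPM, all above the vehicle range, and rose by 0.67 ± 0.07 (adjusted p = 2.7e-10). SOD1 was 134.7, 141.6 and 166.8 CPM beside 114.1, 123.3 and 116.1 CPM in vehicle, also without overlap, and rose by 0.33 ± 0.08 (adjusted p = 0.0011). Of all genes 49.8% did not overlap vehicle with LY294002. PRDX5 rose by 0.30 ± 0.07 (adjusted p = 4.9e-04) and PRDX3 by 0.14 ± 0.05 (adjusted p = 0.031), the latter lost without vehicle replicate 1 or LY294002 replicate 3 (adjusted p = 0.13 and 0.15). The PRDX3 call was also lost with no filter on low counts (adjusted p = 0.098). With CAT, 5 of the 10 were called, where 39.3% of all genes were.

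With thioridazine PRDX5 was 154.6, 176.6 and 176.7 CPM and rose by 0.56 ± 0.07 (adjusted p = 2.4e-09). SOD3 was 12.9, 12.4 and 13.6 CPM against 9.51, 8.78 and 8.89 CPM in vehicle, a rise of 0.52 ± 0.11 (adjusted p = 9.4e-05). GPX4 was 147.4, 149.8 and 164.4 CPM and rose by 0.37 ± 0.07 (adjusted p = 2.8e-05), and none of these 3 genes overlapped vehicle, as was so for 59.3% of all genes. PRDX2 fell, from 143.3, 142.0 and 141.8 CPM to 123.1, 125.6 and 120.8 CPM, by 0.21 on the log2 scale (SE 0.06, adjusted p = 0.0021). Of the 10 genes 5 were called, where 48.4% of all genes were.

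With wortmannin edgeR called 2 of the 10, where 31.7% of all genes were called and 49.1% did not overlap vehicle. Beside the lower GPX1, GPX4 was 133.4, 132.6 and 144.4 CPM, above the vehicle range, a rise of 0.20 ± 0.07 (adjusted p = 0.028) that was lost without wortmannin replicate 3 or vehicle replicate 2 or 3 (adjusted p from 0.058 to 0.13). PRDX5 was 122.7, 127.3 and 137.0 CPM, also above its vehicle range. Its log2 change of 0.17 was not called by edgeR (adjusted p = 0.061), and 3 of 6 alternatives called it. PRDX2, at -0.13, was not called by edgeR either (adjusted p = 0.076), and 2 of 6 alternatives called it. Against LY294002, which was given at the same dose and time, wortmannin was lower in GPX4 by -0.47 ± 0.07 (adjusted p = 5.1e-06). It was also lower in SOD1 by -0.27 ± 0.08 (adjusted p = 0.017) and in GPX1 by -0.18 ± 0.06 (adjusted p = 0.040), where 16.4% of all genes differed. The SOD1 call was lost without wortmannin replicate 1 or 2 or LY294002 replicate 3, and the GPX1 call without any of these or LY294002 replicate 2. With the 2 groups fitted alone the SOD1 call was lost too (adjusted p = 0.054). For SOD2 the difference was -0.09 with an interval of 1.96 SE on either side from -0.19 to 0.02, and for CAT -0.08 with an interval of -0.18 to 0.02.

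The FOXO targets were mostly higher with all 3 drugs. Of 18 genes 14 rose and 1 fell with wortmannin (median 0.44), 17 rose and 1 fell with LY294002 (median 0.76), and 14 rose and 1 fell with thioridazine (median 0.59). Of all genes 15.4% rose and 16.4% fell with wortmannin, 19.4% and 19.9% with LY294002, and 24.6% and 23.8% with thioridazine. IGFBP1, an insulin-like growth factor binding protein, rose by 1.83, 1.17 and 2.62 in that order. TXNIP rose by 1.15 with wortmannin and 1.68 with LY294002 and fell by 0.47 with thioridazine. SOD2 and CAT, known FOXO targets that are not on that list, were called by edgeR in 1 drug each: SOD2 with thioridazine and CAT with LY294002. With wortmannin CAT was 0.12 and not called by edgeR (adjusted p = 0.077), and 2 of 6 alternatives called it. Of 18 genes of the mitochondrial matrix and import, 13 fell and none rose with wortmannin, 12 fell and 2 rose with LY294002, and 12 fell and 3 rose with thioridazine, where the shares of all genes are those given for the FOXO list. PRDX3, the mitochondrial peroxiredoxin, was 0.08, 0.14 and 0.02 in these drugs.

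**Figure D4:**
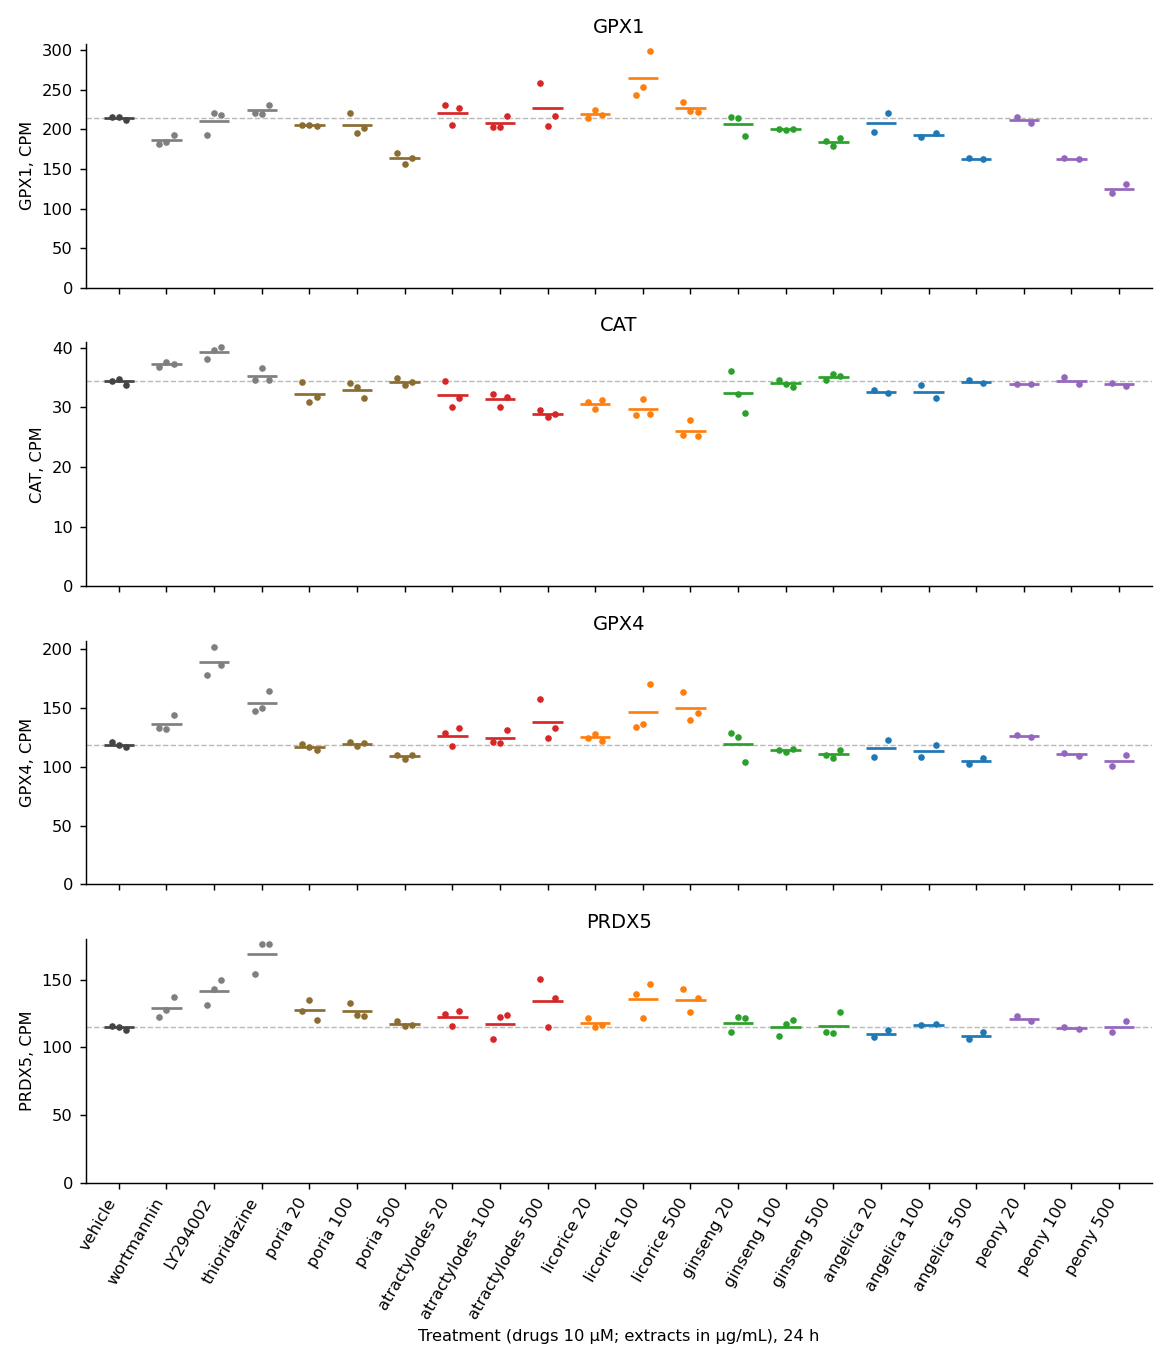
CPM of GPX1, CAT, GPX4 and PRDX5 in each of the 60 libraries (points; bars are group means, the dashed line the vehicle mean, axes start at 0), by treatment. GPX1 is lowest in peony at 500 µg/mL (119.1 and 130.7 CPM), CAT in licorice at 500 µg/mL, GPX4 is highest with LY294002 and PRDX5 with thioridazine.

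PRDX6 was called in none of the 21 comparisons with vehicle by edgeR, with 1 at an unadjusted p under 0.05 and 0 called by DESeq2. Its group means ran from 220.5 to 257.2 CPM. PRDX2 was called with thioridazine only, SOD3 with thioridazine only, and SOD1 with LY294002 and licorice medium only, in these 21 comparisons by edgeR. SOD3 was lowest in angelica high, at 6.96 and 6.78 CPM, below the vehicle libraries, where 44.2% of all genes did not overlap vehicle. Its log2 change of -0.40 was not called by edgeR (adjusted p = 0.064). It was called under 3 of 6 alternatives (adjusted p from 0.0042 to 0.067). None of the 10 genes was called in poria medium or low, ginseng medium or low, angelica medium or low, or peony low, where between 0.419% and 5.23% of all genes were (1.47% and 0.419%, 0.569% and 0.592%, 2.91% and 1.75%, and 5.23% in that order). Of these 70 pairs 5 had an unadjusted p under 0.05 in edgeR, and DESeq2 called 0.

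When each extract's high dose was set against its low dose, 9 of the 60 pairs of enzyme gene and extract were called, beside 5.88% of all pairs. In licorice 4 were called, where 18.2% of all genes were. They were SOD2, CAT, GPX4 (0.26 ± 0.07, adjusted p = 0.0080) and PRDX5 (0.20 ± 0.07, adjusted p = 0.041). GPX4 was lost without licorice high replicate 1, and PRDX5 without licorice high replicate 1 or 3 or licorice low replicate 2 or 3. In peony 2 were called (SOD2 and GPX1, 5.9% of all genes), in atractylodes SOD2 (4.1%), in poria GPX1 (5.51%), in angelica GPX1 (0.943%), and in ginseng none by edgeR or DESeq2 (0.653%), with 2 at an unadjusted p under 0.05 in edgeR.

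The genes most like each of the other enzymes over the 22 group means were named by the same measure. OAZ1, which controls polyamine synthesis, was most like SOD1 (Pearson's r = 0.965), MCRIP1 most like GPX4 (0.964) and CD63, a tetraspanin of late endosomes, most like PRDX5 (0.968). TMEM8B was most like CAT (0.944), COX7A2, a subunit of cytochrome c oxidase, most like PRDX3 (0.928), and LAPTM4B, a lysosomal membrane protein, most like GPX1 (0.908). RCN3 was most like SOD3 (0.903), SLC39A3 most like PRDX2 (0.89) and PDAP1 most like PRDX6 (0.87). Group means of the same 60 libraries underlie all of these, and they carry no test.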

How the data were processed

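RNA of SW1783 cells was sequenced (paired 100-base reads, directional kit), per the labels' protocols. Per the submitters' processing notes the tools were STAR 2.7.3a, RSEM 1.3.3, Trim Galore 0.6.5 and FastQC 0.11.9, on GRCh38; the annotation and strand setting are not given in the sources used here. The authors deposited expected counts per gene from RSEM; 9.48% of values were not whole (tolerance 1e-06), and values were rounded. Of 279 columns, 60 matched the labels and 219 were not used. Gene names are from GENCODE 29 (57055 of 60675 IDs matched).

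Counts were fitted with edgeR 4.0.16 in R 4.3.3: TMM scaling, filterByExpr (minimum count 10, total 15), 1 robust quasi-likelihood fit over all 22 groups, two-sided tests, and Benjamini-Hochberg adjustment over 17919 genes. A gene was called at an adjusted p under 0.05. The common biological coefficient of variation was 0.051. CPM were computed from the rounded expected counts and are TMM-scaled, except those of the cell markers, which are scaled to the library total only. The median log2 change over all genes was within 0.025 of 0 in every comparison. Log2 fold changes are given with their SE, and intervals are 1.96 SE on either side.

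The enzyme genes and gene lists were chosen with earlier results of these data known. Named from the lists were the genes with the smallest p among those called (at most 5 per comparison), those sharing a function with an enzyme gene, NFKBIA, TNFAIP3 and CXCL8 beside SOD2, and TXNIP and IGFBP1 beside the inhibitors; ICAM1 with thioridazine is the single list gene that rose. Likeness is Pearson's correlation of group mean log2 CPM over 22 groups, among 11174 genes with at least 5 CPM. Alternatives were DESeq2 1.42.0, its size factors, no filter, a replicate block, the 2 groups alone, leaving out each library, and leaving out 5 libraries. The edgeR script was tested on counts simulated with the same spread for all genes. It recovered 46 of 50 genes changed 1.5-fold, and 40 of 50 changed 1.25-fold, for licorice high against vehicle (17403 genes). Replicates of a group differed by more than sampling noise in every pair (chi-square per degree of freedom 2.18 to 20.9).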

Additional observations from a re-analysis of the deposited data

How the results depend on the processing

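Of the 38 calls against vehicle, 25 were kept under every alternative and without every library, 7 were lost under at least 1 of 6 alternatives and 12 without at least 1 library; none reversed. All 8 SOD2 rises were among those kept. Of 172 values not called, 27 were called under at least 1 alternative. Calls that rose numbered 28 and ranged from 23 to 29 with 1 library left out; calls that fell numbered 10 and ranged from 9 to 11, but came to 17 without the 5 libraries standing apart (chosen after seeing the data) and to 24 with each pair of groups fitted alone, where the spread is estimated from 5 or 6 libraries. SOD2 with wortmannin, -0.12 and not called, passed without the 5 libraries (-0.11, adjusted p = 0.048) and with the 2 groups fitted alone (-0.12, adjusted p = 0.0026). Wortmannin against LY294002 gave 3 calls, and 1 to 3 with 1 library left out: 1 without wortmannin replicate 1 or 2 or LY294002 replicate 3. High against low doses gave 9, and 7 to 10. The cause of these changes was not tested. The deviations of same-numbered libraries from their group means had correlations of -0.067 to 0.225. Libraries of different numbers were not set beside them, so this check cannot tell whether the numbers pair libraries. With the replicate block 29 rose and 12 fell, and SOD2 with wortmannin was -0.12 (adjusted p = 0.045). Simulated 1.5-fold changes were found for 43 of 50 genes in peony high, which has 2 libraries, and 46 of 50 in licorice high, so small changes can be missed.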
